A study of Homo sapiens with 44 samples.

Results

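The levels of 58 genes of chromatin remodelers, bromodomain proteins and histone demethylases were compared between human prostate tumors grown in mice under enzalutamide, ARN-509 or vehicle. The genes were taken by symbol alone, as those named KDM, BRD, CHD, ARID or BRWD with a number, or SMARC with a letter from A to E. Among the 23368 genes deposited, 60 carried such a symbol, and 58 of them reached 1 CPM (a count scaled to the size of its library) in at least 14 libraries, the limit that left 13986 genes for testing. In all 43 libraries 57 of the 58 reached that level, and BRWD1-IT2 reached it in 27. ARID3C, with 44 counts over the 43 libraries, and KDM4DL, with 0, were not tested. By family the 58 comprised 17 KDM, 13 SMARC, 9 ARID, 9 CHD, 7 BRD and 3 BRWD genes.

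VCaP is an established prostate cancer cell line with an amplified androgen receptor and the TMPRSS2-ERG fusion, and all tumors came from this single line at passage p61 in HSD:Athymic Nude-Foxn1nu mice. The animals of every arm had been castrated, and dosing began only after PSA in serum was back at its precastration level. The vehicle tumors thus also grew in castrated hosts. The arms held 14 tumors given enzalutamide, 15 given ARN-509 (apalutamide) and 15 given vehicle, with each drug at 20 mg/kg/day by gavage for 4 weeks. The library enzalutamide 4 was left out throughout because it held 80142 counts, of which 849 fell on 48 of the 58 genes, so 13 enzalutamide libraries remained. A separate mouse was taken as the source of each library, since the number of libraries equals the number of mice per arm in the labels.

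Chromatin remodelers use ATP to slide, eject or exchange nucleosomes, and the SMARC genes encode the ATPases and the core subunits of the BAF and PBAF complexes, together with the ISWI motors and a few relatives. Bromodomain proteins read acetylated lysines on histones, and KDM enzymes remove methyl groups from histone lysines. CHD proteins are a further class of remodeling ATPases, and ARID proteins bind DNA, some of them as parts of remodeling complexes. In prostate cancer KDM1A, KDM4B and SMARCA4 are known as cofactors of transcription by the androgen receptor, and CHD1 as a gene recurrently deleted in tumors.

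Library depth ran from 4.72 to 16.9 M counts (M for mega) with enzalutamide, 3.38 to 30.1 M with ARN-509 and 4.19 to 25.8 M with vehicle. The 11 markers of VCaP tumors summed to 14167 to 20692 CPM with enzalutamide, 14012 to 20022 CPM with ARN-509 and 8906 to 17340 CPM with vehicle, so the labelled cell line was present in every library. Fibroblast markers, of which 2 of 7 were tested, summed to at most 24.3 CPM in any library, the leukocyte, endothelial and erythrocyte markers to at most 11.03, 6.51 and 1.60 CPM. Under each drug 1 of the 2 tested fibroblast markers and the endothelial marker VWF fell, and the endothelial sum had a median of 0.808 CPM with enzalutamide and 0.928 CPM with ARN-509, against 4.06 CPM with vehicle. Of the VCaP markers 2 rose under enzalutamide, and 2 rose and 4 fell under ARN-509. These markers are human symbols, whereas the host cells are mouse, and the part of host RNA in any result was not tested. In whole tumors, fewer cells of a type and less RNA per cell cannot be told apart.

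The libraries differed in how their counts followed the GC content of the transcripts, and these genes cover a wide range of it, lowest in SMARCAD1 and reaching 64.4% in ARID5A, with quartiles of 42.9% and 55.0% and a median of 50.7%, against 48.7% over all tested genes. Their transcripts were also long, with a median of 5946 bases against 3628 over all tested genes. Relative to the mean of all libraries, log2 levels changed by -0.04 to 0.34 per 10 percentage points of GC content with enzalutamide (median 0.05), by -0.32 to 0.10 with ARN-509 (median -0.10) and by -0.13 to 0.33 with vehicle (median -0.0012). The slope was above 0 in 10 of 13 enzalutamide libraries, in 4 of 15 ARN-509 libraries and in 7 of 15 vehicle libraries, and it was steepest in enzalutamide 9, ARN-509 12 and vehicle 8. Called differences are therefore also given after each library's GC and length trend, fitted over all genes, was removed (called trend-removed). This could be done for 57 of the 58 genes (all but BRWD1-IT2).

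Levels per transcript length set the genes apart by more than any drug did. Over the 43 libraries the highest means were those of BRD2 with 121 CPM per kb, BRD8 with 99.8, KDM1A with 70.1 and KDM2A with 62.1, and the lowest was that of KDM4D with 0.87 CPM per kb, around a median of 14.8. Within the vehicle arm the SD of log2 levels had a median of 0.26 over the genes, from 0.07 for SMARCD1 and 0.08 for SMARCE1, a pair of BAF subunits, to 0.71 for CHD9 and for KDM5B-AS1. For 57 of the genes (all but KDM5D, whose levels by library are not given), single libraries held many of the extremes: vehicle 8 had the lowest level of all 43 libraries for 12 genes, 8 of them among the 19 under 45% GC, and vehicle 10 the highest for 13 genes, 10 of them among the 37 of these at or over 45% GC. By arm, the lowest level of these 57 genes lay in an enzalutamide library for 20 genes, in an ARN-509 library for 11 and in a vehicle library for 26, and the highest for 8, 18 and 31 genes in the same order.

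**Figure D1:**
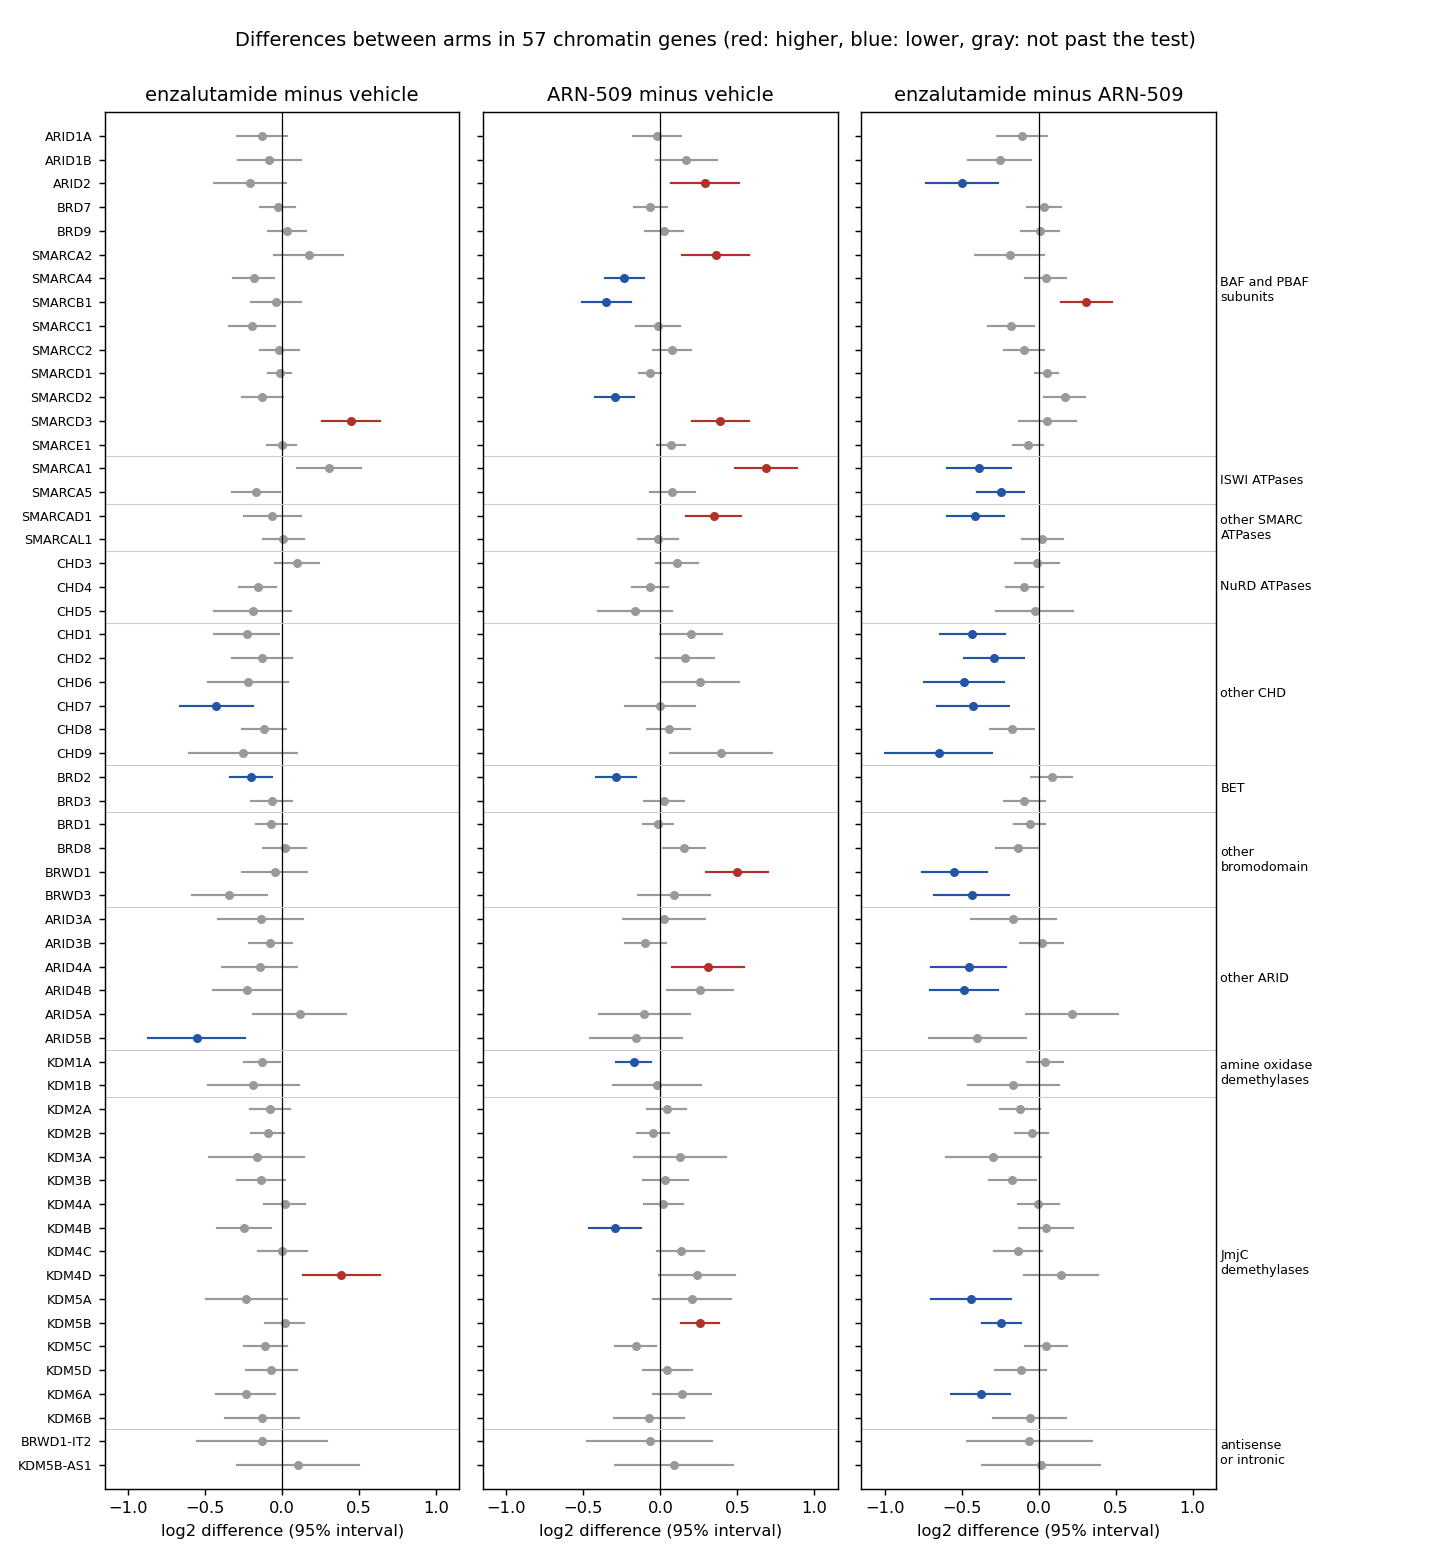
Log2 differences of 57 of the 58 genes, grouped by role down the page, in 3 panels, each drug against vehicle and then enzalutamide against ARN-509 (points, with 95% intervals as lines, red for higher and blue for lower past an adjusted p of 0.05, gray for the rest). In the panel of enzalutamide minus ARN-509, 16 genes lie below 0 in blue and 1, SMARCB1, above it in red.

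Under enzalutamide 2 of the 58 genes rose and 3 fell against vehicle, by edgeR's quasi-likelihood test with Benjamini-Hochberg adjustment over all tested genes at a threshold of 0.05. SMARCD3, a variant subunit of BAF, and KDM4D, a demethylase of histone H3 lysine 9, rose, while ARID5B, CHD7 and BRD2 fell. These 5 genes are 8.62% of the 58, and 10.6% of all tested genes passed (4.69% higher, 5.89% lower), so the share was near the background. The median difference of the 58 was -0.12 on the log2 scale against -0.01 for all tested genes, and 45 of the 58 lay below 0. With the GC and length trend removed, 4 genes rose (SMARCD3, SMARCA1, SMARCA2 and KDM4D) and 10 fell (among them BRD2, CHD4, CHD7, ARID5B, KDM1A, KDM4B, SMARCA4, SMARCC1 and SMARCD2), beside 14.7% of all genes so tested (6.29% higher, 8.40% lower), with a median of -0.08.

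Under ARN-509 8 of the 58 rose and 6 fell against vehicle. The genes that rose were the ATPases SMARCA1, SMARCA2 and SMARCAD1, the BAF subunits SMARCD3 and ARID2, the bromodomain protein BRWD1, the histone H3 lysine 4 demethylase KDM5B and ARID4A, and those that fell were BRD2, SMARCA4, SMARCB1, SMARCD2, KDM1A and KDM4B. Of all tested genes 30.1% passed (13.9% higher, 16.3% lower), above the 24.1% of the 58, and the median of the 58 was 0.04 against -0.0044 for all tested genes. The trend-removed fit gave 5 higher (BRWD1, SMARCA1, SMARCA2, SMARCAD1 and SMARCD3) and 7 lower (BRD2, BRD7, KDM4B, KDM5C, SMARCA4, SMARCB1 and SMARCD2), with 27.2% of all genes passing (12.4% higher, 14.9% lower). The comparisons of each drug with vehicle share the 15 vehicle libraries, and their values are therefore given side by side and not counted as repeats of each other.

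Between the drugs, 1 gene was higher with enzalutamide than with ARN-509, SMARCB1, and 16 were lower, among 25.4% of all tested genes that passed (11.1% higher, 14.3% lower). The 16 were ARID2, ARID4A, ARID4B, BRWD1, BRWD3, CHD1, CHD2, CHD6, CHD7, CHD9, KDM5A, KDM5B, KDM6A, SMARCA1, SMARCA5 and SMARCAD1, and 13 of them had transcripts under 45% GC. Of the 19 members under 45% GC 13 were lower, with a median of -0.40, against 1673 of 4941 tested genes in that range with a median of -0.17. Of the 38 members at or over 45% GC 3 were lower and 1 was higher, with a median of -0.04 against 0.10 for the 8406 tested genes in that range. Once the GC and length trend was removed, 0 were higher by edgeR (3 at an unadjusted p under 0.05) and 4 were lower (ARID2, ARID4B, CHD6 and KDM6A), beside 5.42% of all genes so tested (2.59% higher, 2.82% lower). With the GC trend alone removed 0 members were higher (3 at an unadjusted p under 0.05) and 15 were lower, beside 9.95% of all genes called in either direction (568 higher and 760 lower), and the count came down to 4 only when length was removed as well.

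Across the 57 members with values, the Spearman correlation between GC content and the difference of the drugs was 0.76, and that between length and this difference -0.67, against 0.59 and -0.50 across all tested genes. For ARN-509 minus vehicle the correlation with GC content was -0.68 across the members and -0.41 across all tested genes, and for enzalutamide minus vehicle 0.20 and 0.19. With length it was -0.53 across the members and -0.19 across all tested genes for enzalutamide minus vehicle, and 0.29 and 0.31 for ARN-509 minus vehicle. After the removal the correlations with GC content across the members were 0.31 between the drugs, -0.28 for ARN-509 and -0.15 for enzalutamide, and those across all genes lay between -0.02 and 0.02. With length they were -0.26, -0.05 and -0.25 across the members in the same order, and between -0.03 and 0.02 across all genes. Genes within a library share its depth and its trends and are not independent, so these correlations are descriptions.

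**Figure D2:**
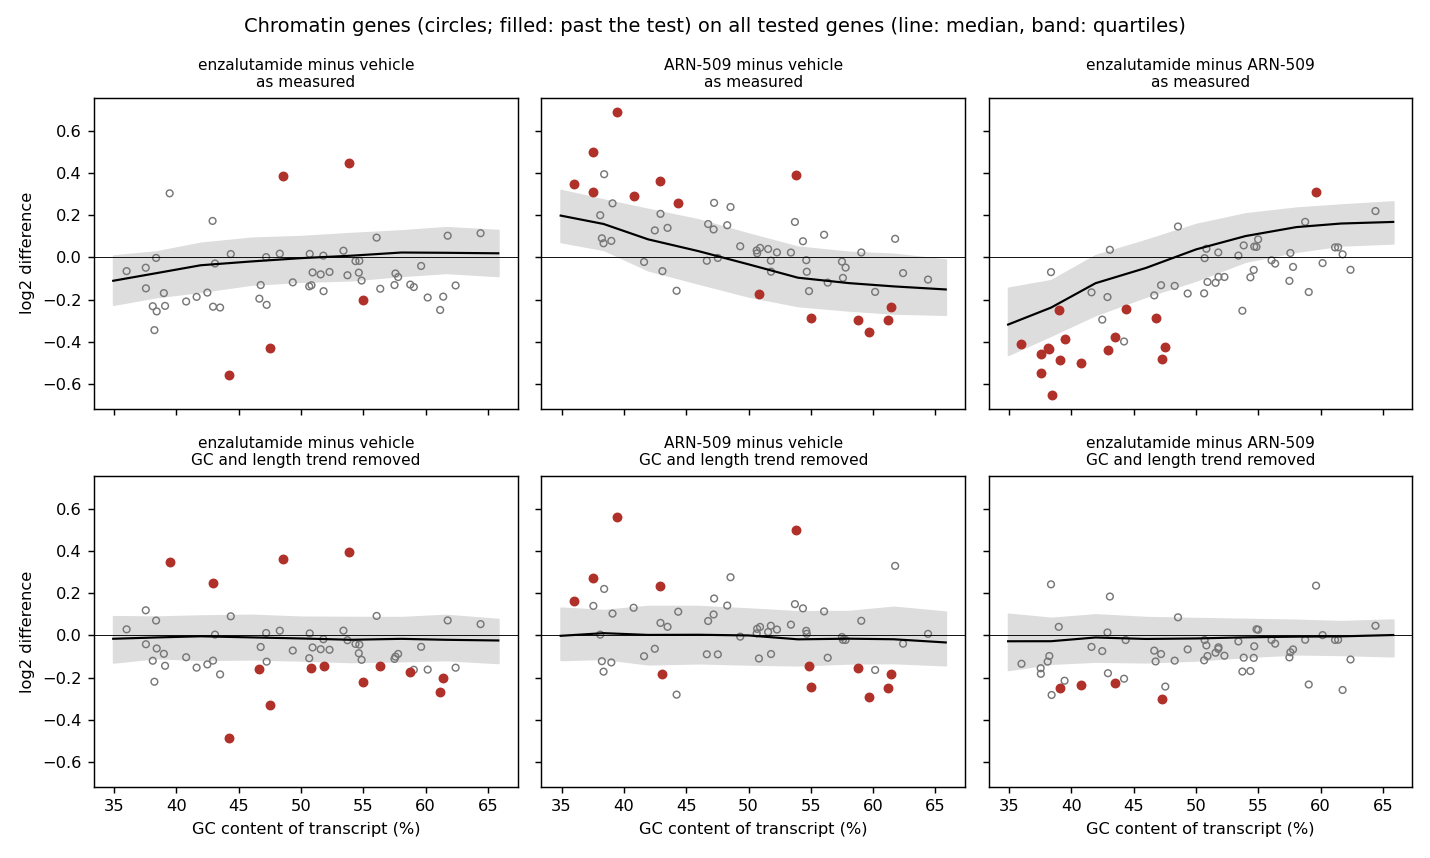
Log2 difference against the GC content of the transcript (%) for the 57 members with a value (circles, filled where the adjusted p is under 0.05), over the median (line) and quartiles (band) of all tested genes, as fitted (top) and with each library's GC and length trend removed (bottom). At the top right the members run upward from low to high GC content with a Spearman correlation of 0.76, and in the trend-removed panel 4 circles are filled.

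Among the 14 BAF and PBAF subunits the catalytic ATPases moved apart. SMARCA2 (BRM) and SMARCA4 (BRG1) are alternative motors of the complex, so that each BAF particle carries either of the pair. SMARCA2 had a lowest, median and highest level of 115, 132 and 169.2 CPM with enzalutamide and 111, 159 and 205 CPM with ARN-509, against 70.6, 120.3 and 195 CPM with vehicle. The arms overlapped, with 14 of 15 ARN-509 libraries and 11 of 13 enzalutamide libraries above the vehicle median. It rose under ARN-509 by 0.36 ± 0.11 on the log2 scale (SE, adjusted p = 0.0107) and differed by 0.17 ± 0.11 under enzalutamide, which did not pass (adjusted p = 0.358), and the trend-removed values were 0.24 and 0.25 (adjusted p = 0.0280 and 0.0390).

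SMARCA4 went the other way. Its lowest, median and highest levels were 122, 161 and 189.9 CPM with enzalutamide and 123, 150 and 181 CPM with ARN-509, against 151, 176 and 226 CPM with vehicle. Below the lowest vehicle library lay 8 of 15 ARN-509 libraries and 4 of 13 enzalutamide libraries. It fell by 0.23 ± 0.06 under ARN-509 (adjusted p = 0.00538), and its difference under enzalutamide was -0.19 ± 0.07 (adjusted p = 0.0634), which passed with the trend removed (-0.20, adjusted p = 0.00752). With only the GC trend removed the fall under ARN-509 did not pass (-0.10, adjusted p = 0.233). Per transcript length, SMARCA2 stood at a median of 0.745 times SMARCA4 with enzalutamide and 0.835 times with ARN-509, against 0.539 times with vehicle. Every library of both drugs was above the vehicle median. The vehicle ratios ran from 0.257 to 0.852, and 2 of 13 enzalutamide and 6 of 15 ARN-509 libraries exceeded the highest of them. SMARCA2 and SMARCA4 transcripts have 42.9% and 61.4% GC, and the GC slopes of the libraries differed between arms, but the part of that trend in the ratio was not tested.

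The promoters of SMARCA2, SMARCA4, SMARCD3 and BRWD1 are printed because SMARCA2 and SMARCA4 are alternative motors that moved in opposite directions under ARN-509, SMARCD3 passed under both drugs, and BRWD1 combines a GC-rich promoter with a transcript of low GC content. The GC trend of the libraries was fitted on transcripts, not on these windows. Each sequence is the 300 bases around the annotated start in RefSeq (GRCh38.p14), on the strand of the gene, and capitals mark CG dinucleotides.
SMARCA2: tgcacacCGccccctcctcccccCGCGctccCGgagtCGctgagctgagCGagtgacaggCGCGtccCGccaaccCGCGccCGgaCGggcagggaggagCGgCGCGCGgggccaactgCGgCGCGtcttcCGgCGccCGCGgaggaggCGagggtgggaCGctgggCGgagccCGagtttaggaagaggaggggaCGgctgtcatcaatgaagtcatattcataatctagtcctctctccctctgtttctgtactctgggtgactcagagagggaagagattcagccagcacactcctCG
SMARCA4: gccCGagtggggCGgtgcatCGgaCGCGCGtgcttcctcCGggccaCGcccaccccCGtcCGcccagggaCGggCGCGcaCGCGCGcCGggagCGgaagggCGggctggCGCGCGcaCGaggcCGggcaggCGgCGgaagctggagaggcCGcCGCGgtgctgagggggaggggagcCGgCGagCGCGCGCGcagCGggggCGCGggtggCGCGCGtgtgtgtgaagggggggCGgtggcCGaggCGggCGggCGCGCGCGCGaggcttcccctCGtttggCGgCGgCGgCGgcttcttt
SMARCD3: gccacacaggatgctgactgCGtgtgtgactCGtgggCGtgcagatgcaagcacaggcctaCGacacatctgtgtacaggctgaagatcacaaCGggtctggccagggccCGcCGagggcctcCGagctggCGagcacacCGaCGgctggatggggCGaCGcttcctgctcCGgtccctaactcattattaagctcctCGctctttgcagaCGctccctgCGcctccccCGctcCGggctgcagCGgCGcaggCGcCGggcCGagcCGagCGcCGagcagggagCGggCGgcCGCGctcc
BRWD1: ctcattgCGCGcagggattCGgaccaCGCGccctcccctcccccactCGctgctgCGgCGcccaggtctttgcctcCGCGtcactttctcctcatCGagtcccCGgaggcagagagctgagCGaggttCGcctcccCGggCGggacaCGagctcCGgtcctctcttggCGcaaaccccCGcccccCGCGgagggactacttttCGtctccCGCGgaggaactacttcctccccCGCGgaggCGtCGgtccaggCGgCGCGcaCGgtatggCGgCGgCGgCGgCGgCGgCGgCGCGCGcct

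The SMARCA2 window (chr9:2015097-2015396, + strand) holds 30 CG dinucleotides in 66.7% GC, and that of SMARCA4 (chr19:10960780-10961079, + strand) 55 in 81.3% GC. SMARCD3 (chr7:151277100-151277399, - strand) holds 31 in 68.7% GC and BRWD1 (chr21:39313583-39313882, - strand) 43 in 72.7% GC, although the BRWD1 transcript has only 37.5% GC. RefSeq promoters were found for 47 of the 58 genes, with a median of 66.3% GC against 58.3% for all 27305 promoters, and a median of 28 CG dinucleotides against 14. The half-site AGAACA of androgen response elements, or TGTTCT on the other strand, was in 2 of the 47 windows (4.26%), those of CHD4 and SMARCAD1, against 14.9% of all promoters. The full element, AGAACA followed after 3 bases by TGTTCT, was in 0 of the 47 and in 1 of all promoters, which says only that these letters are not in windows of this length.

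SMARCD3, the BAF60C variant of a subunit that SMARCD1 and SMARCD2 also fill, rose under both drugs. It had 16.2, 20.6 and 27.2 CPM with enzalutamide and 16.0, 20.4 and 27.4 CPM with ARN-509, against 11.8, 14.4 and 23.6 CPM with vehicle, as lowest, median and highest. All 13 enzalutamide and all 15 ARN-509 libraries exceeded the vehicle median, although most stayed below the highest vehicle library. The rise was 0.45 ± 0.09 under enzalutamide (1.36-fold, adjusted p = 0.000733) and 0.39 ± 0.09 under ARN-509 (1.31-fold, adjusted p = 0.00134), and 0.39 and 0.50 with the trend removed. Of the alternatives run, including those that left out each library in turn, only the fit with enzalutamide 4 added ended these calls (adjusted p = 0.173 and 0.373). The share of SMARCD3 in the summed level per length of SMARCD1, SMARCD2 and SMARCD3 had a median of 10.9% with enzalutamide and 11.4% with ARN-509, against 7.52% with vehicle. The vehicle shares ran from 5.48% to 12.2%, and 3 of 13 enzalutamide and 5 of 15 ARN-509 libraries exceeded the highest of them.

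SMARCD2 (BAF60B) had 82.3, 91.0 and 116 CPM with enzalutamide and 72.6, 84.0 and 88.1 CPM with ARN-509, against 72.3, 96.9 and 146 CPM with vehicle. All 15 ARN-509 libraries lay below the vehicle median, but none lay below the lowest vehicle library. It fell by 0.30 ± 0.06 under ARN-509 (adjusted p = 0.000521) and differed by -0.13 ± 0.07 under enzalutamide (adjusted p = 0.225, and -0.17 with adjusted p = 0.00788 once the trend was removed). SMARCD1 differed by -0.02 under enzalutamide and -0.07 under ARN-509, with neither past the test.

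SMARCB1 (SNF5), the core subunit lost in rhabdoid tumors, had 70.2, 100.3 and 111 CPM with enzalutamide and 63.4, 79.6 and 96.2 CPM with ARN-509, against 73.5, 97.2 and 156 CPM with vehicle. The ARN-509 arm was the low one, with all 15 libraries below the vehicle median and 6 below the lowest vehicle library. It fell by 0.35 ± 0.08 under ARN-509 (adjusted p = 0.00085), the difference under enzalutamide was -0.04 ± 0.08 (adjusted p = 0.819), and that between enzalutamide and ARN-509 was 0.31 ± 0.08 (adjusted p = 0.0072). With the trend removed the difference between the drugs was 0.24 and no longer passed (adjusted p = 0.0572), while that of ARN-509 against vehicle stayed at -0.29 (adjusted p = 0.00316).

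The DNA-binding ARID subunits define which complex forms, ARID1A and ARID1B in BAF and ARID2 in PBAF. ARID2 had 47.7, 63.9 and 91.8 CPM with enzalutamide and 67.7, 100.5 and 129 CPM with ARN-509, against 45.8, 74.0 and 119.8 CPM with vehicle. All 13 enzalutamide libraries were below the ARN-509 median and 7 were below the lowest ARN-509 library. Between the drugs ARID2 was lower with enzalutamide at a log2 difference of -0.50 ± 0.12 (adjusted p = 0.00433, and -0.23 with adjusted p = 0.0172 once the trend was removed). Its rise under ARN-509, 0.29 ± 0.11 (adjusted p = 0.0424), lost the call with the trend removed (0.13, adjusted p = 0.0710) and in 18 of 43 fits that left out 1 library.

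ARID1A and ARID1B passed in no comparison. The 95% interval of ARID1A ran from -0.29 to 0.03 for enzalutamide minus vehicle and from -0.18 to 0.14 for ARN-509 minus vehicle. That of ARID1B ran from -0.29 to 0.12 and from -0.03 to 0.37, and between the drugs from -0.46 to -0.05 (adjusted p = 0.0605). Of the scaffold and accessory subunits SMARCC1, SMARCC2, SMARCE1, BRD7 and BRD9, none passed in any comparison as fitted, and SMARCC1 differed by -0.19 ± 0.07 under enzalutamide (adjusted p = 0.0805). With the trend removed SMARCC1 was lower under enzalutamide (-0.16, adjusted p = 0.0389) and BRD7 lower under ARN-509 (-0.18, adjusted p = 0.0290).

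**Figure D3:**
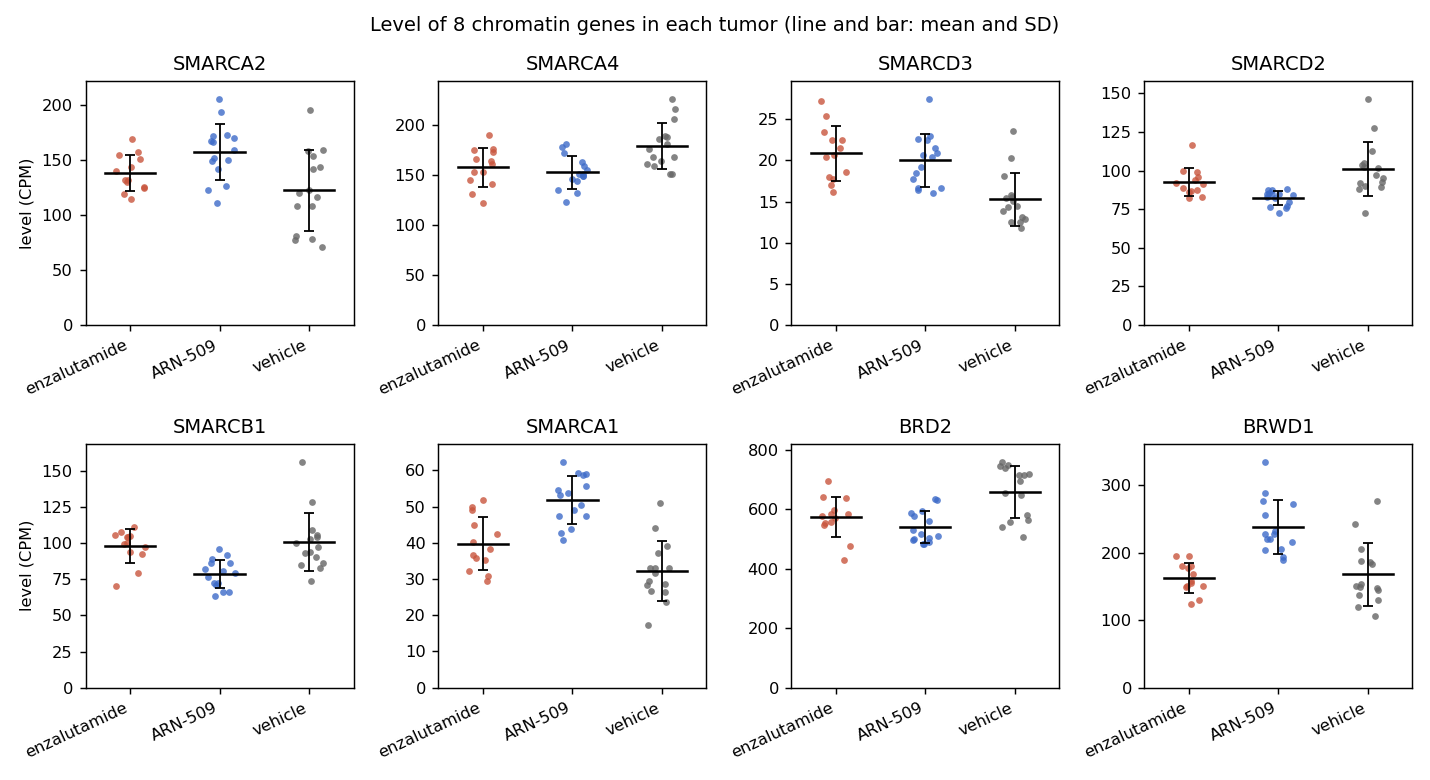
Levels (CPM of the TMM-scaled total, axes from 0) of SMARCA2, SMARCA4, SMARCD3, SMARCD2, SMARCB1, SMARCA1, BRD2 and BRWD1 in each of 13 enzalutamide, 15 ARN-509 and 15 vehicle libraries, 1 point per library with the mean and SD as black lines. The arms overlap in every panel, and SMARCD3 stands above the vehicle median of 14.4 CPM in every library of both drugs.

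**Figure D4:**
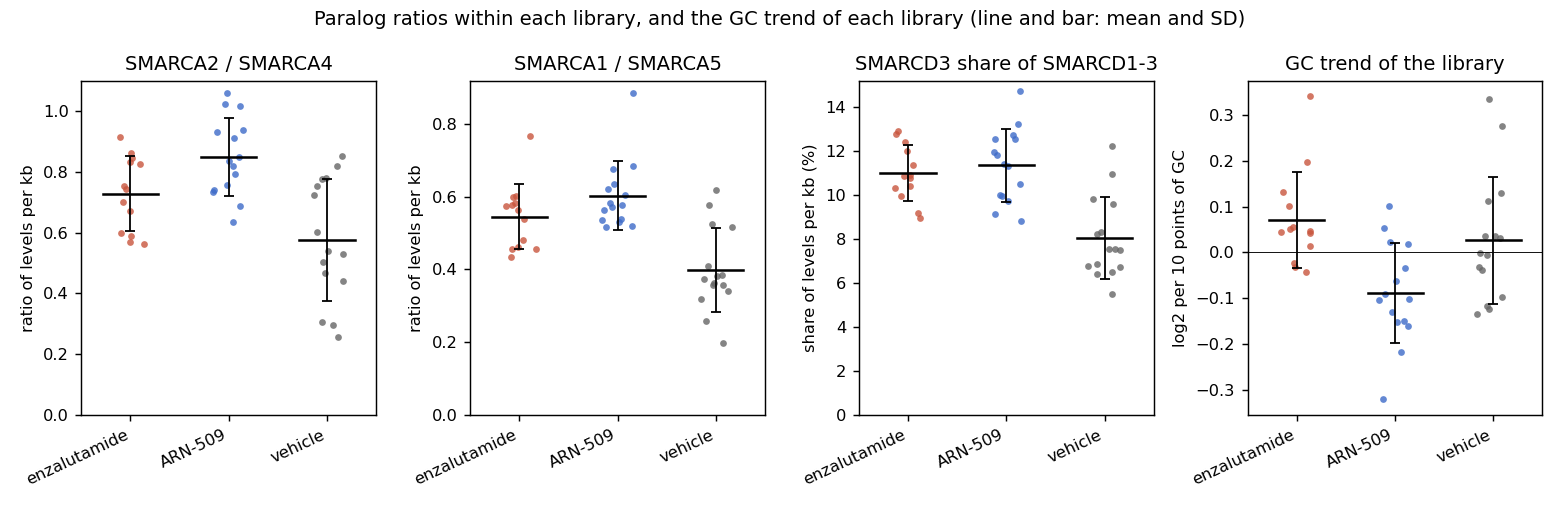
SMARCA2 over SMARCA4 and SMARCA1 over SMARCA5 per transcript length, the share of SMARCD3 in its subunit group (%) and the GC trend of each library (log2 per 10 percentage points), 1 point per library with mean and SD as black lines. Both ratios and the share lie above the vehicle median in all 13 enzalutamide and 15 ARN-509 libraries, although most stay below the highest vehicle library. The GC trend is lowest in the ARN-509 arm.

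The ISWI motors SMARCA1 (SNF2L) and SMARCA5 (SNF2H) space nucleosomes, and SMARCA5 is the more widely expressed of the pair. SMARCA1 had 29.4, 38.4 and 51.7 CPM with enzalutamide and 40.8, 53.3 and 62.4 CPM with ARN-509, against 17.2, 31.6 and 51.1 CPM with vehicle. All 15 ARN-509 libraries lay above the vehicle median and 8 above the highest vehicle library. It rose by 0.69 ± 0.10 under ARN-509 (1.61-fold, adjusted p = 1.37e-06, and 0.56 with the trend removed), the highest of the 58 differences in that comparison. Under enzalutamide its difference of 0.30 ± 0.10 had an adjusted p of 0.0516 and passed with the trend removed (0.35, adjusted p = 0.00951). The difference between the drugs was -0.38 ± 0.10 (adjusted p = 0.00852), and -0.21 with an adjusted p of 0.153 once the trend was removed.

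SMARCA5 had 113, 127 and 172 CPM with enzalutamide and 130.2, 160.2 and 196 CPM with ARN-509, against 117, 157 and 191 CPM with vehicle. Neither drug passed against vehicle (-0.17 ± 0.08 and 0.08 ± 0.07), and between the drugs it was lower with enzalutamide at a log2 difference of -0.25 ± 0.08 (adjusted p = 0.0178). That last difference turned sign with the trend removed (0.04, adjusted p = 0.677). Per length, SMARCA1 stood at a median of 0.564 times SMARCA5 with enzalutamide and 0.577 times with ARN-509, against 0.373 times with vehicle. The vehicle ratios ran from 0.199 to 0.619, and 1 of 13 enzalutamide and 5 of 15 ARN-509 libraries exceeded the highest of them. The SMARCA1 and SMARCA5 transcripts are close in GC content, 39.5% and 39.0%, but differ in length, 4291 and 7923 bases.

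SMARCAD1, an ATPase of heterochromatin upkeep and DNA end resection, had 51.9, 63.5 and 80.8 CPM with enzalutamide and 72.2, 90.9 and 116 CPM with ARN-509, against 36.4, 67.2 and 89.8 CPM with vehicle. Here 8 of 15 ARN-509 libraries exceeded the highest vehicle library, and 10 of 13 enzalutamide libraries fell below the lowest ARN-509 library. The rise under ARN-509 was 0.35 ± 0.09 (adjusted p = 0.00298, and 0.16 with adjusted p = 0.00515 once the trend was removed), and the difference between the drugs was -0.41 ± 0.09 (adjusted p = 0.0039, and -0.13 with adjusted p = 0.0684). SMARCAL1, an annealing helicase at stalled replication forks, differed by at most 0.02 in size in the 3 comparisons, and none passed.

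The CHD family holds 3 ATPases of the NuRD repressor complex and 6 other remodelers. None of the NuRD ATPases CHD3, CHD4 and CHD5 passed in the 3 comparisons. CHD4 had 270.0, 311 and 342 CPM with enzalutamide and 266, 323 and 380.0 CPM with ARN-509, against 294, 347 and 422 CPM with vehicle. All 13 enzalutamide libraries were below the vehicle median, the difference was -0.16 ± 0.06 (adjusted p = 0.0734), and it passed with the trend removed (-0.14, adjusted p = 0.0403).

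CHD7, the ATPase mutated in CHARGE syndrome, fell under enzalutamide. It had 29.7, 43.9 and 50.8 CPM with enzalutamide and 39.6, 59.5 and 71.5 CPM with ARN-509, against 30.8, 60.3 and 86.8 CPM with vehicle. All 13 enzalutamide libraries were below the medians of both other arms. It fell by 0.43 ± 0.12 against vehicle (adjusted p = 0.0118, and -0.33 with adjusted p = 0.00309 once the trend was removed), and differed by -0.42 ± 0.12 from ARN-509 (adjusted p = 0.00961, and -0.24 with adjusted p = 0.0608). Its difference of ARN-509 from vehicle was -0.0023 ± 0.11, with a 95% interval from -0.23 to 0.22.

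CHD9 varied widely within the arms. It had 26.3, 39.5 and 61.1 CPM with enzalutamide and 42.3, 68.4 and 90.8 CPM with ARN-509, against 14.4, 42.8 and 102 CPM with vehicle, so that the vehicle arm held both the lowest and the highest library. The difference between the drugs was the most negative of the 58, -0.65 ± 0.17 (adjusted p = 0.00826), and -0.28 with an adjusted p of 0.0646 once the trend was removed. Against vehicle it was -0.25 ± 0.17 with enzalutamide and 0.39 ± 0.17 with ARN-509 (adjusted p = 0.386 and 0.0658).

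CHD1, which binds histone H3 trimethylated at lysine 4, had 59.4, 84.4 and 116 CPM with enzalutamide and 84.0, 116 and 140.0 CPM with ARN-509, against 59.4, 99.8 and 131 CPM with vehicle. All 13 enzalutamide libraries were below the ARN-509 median, and the difference between the drugs was -0.43 ± 0.10 (adjusted p = 0.00532, and -0.12 with adjusted p = 0.109 once the trend was removed). CHD2 and CHD6 were likewise lower with enzalutamide than with ARN-509 at a log2 difference of -0.29 ± 0.10 and -0.48 ± 0.13, and CHD6 kept its call with the trend removed (-0.30, adjusted p = 0.0183) while CHD2 did not (-0.12, adjusted p = 0.202). CHD8, a remodeler linked to autism, passed in no comparison and had a 95% interval from -0.31 to -0.03 between the drugs (adjusted p = 0.0671).

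Of the BET proteins, which carry paired bromodomains and are the targets of BET inhibitors, BRD2 fell under both drugs. BRD2 had 431, 577 and 696 CPM with enzalutamide and 483, 516 and 635 CPM with ARN-509, against 508, 695 and 760.1 CPM with vehicle. All 15 ARN-509 libraries and 12 of 13 enzalutamide libraries were below the vehicle median. It fell by 0.20 ± 0.07 under enzalutamide (adjusted p = 0.0420) and fell by 0.29 ± 0.06 under ARN-509 (adjusted p = 0.000845), with trend-removed values of -0.22 and -0.25 that both passed. The call under enzalutamide was lost in 24 of the 43 fits that left out 1 library and in 5 other settings, where the difference ranged from -0.20 to -0.11.

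BRD3 passed in no comparison, with differences of -0.07 ± 0.07 under enzalutamide and 0.02 ± 0.06 under ARN-509.

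BRWD1, a bromodomain and WD-repeat protein known for its part in B-cell development in mice, separated the drugs most clearly. It had 125, 158 and 196 CPM with enzalutamide and 190, 228 and 335 CPM with ARN-509, against 106, 151 and 277 CPM with vehicle. All 15 ARN-509 libraries exceeded the vehicle median, and 11 of 13 enzalutamide libraries lay below the lowest ARN-509 library. It rose by 0.50 ± 0.10 under ARN-509 (1.41-fold, adjusted p = 0.000266, and 0.27 with adjusted p = 3.65e-05 once the trend was removed) and differed by -0.05 ± 0.10 under enzalutamide (adjusted p = 0.833). Between the drugs the difference was -0.55 ± 0.11 (adjusted p = 0.00316), and with the trend removed it was -0.15 and did not pass (adjusted p = 0.0579).

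Its paralog BRWD3 was lower with enzalutamide than with ARN-509 at a log2 difference of -0.43 ± 0.12 (adjusted p = 0.0102), and at -0.10 with an adjusted p of 0.485 once the trend was removed. BRWD1-IT2 lies in an intron of BRWD1, so its reads may come from the unspliced BRWD1 transcript, and it passed in no comparison. Of the other bromodomain proteins, BRD1, a scaffold of histone acetyltransferase complexes, and BRD8, a subunit of the TIP60 complex, passed in none.

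Of the ARID genes outside BAF, ARID5B fell under enzalutamide and ARID4A and ARID4B, partners of the SIN3 repressor complex, were lower with enzalutamide than with ARN-509. ARID5B, which works with the demethylase PHF2, had 16.1, 32.9 and 40.6 CPM with enzalutamide and 24.8, 35.8 and 68.9 CPM with ARN-509, against 20.8, 43.1 and 77.7 CPM with vehicle. All 13 enzalutamide libraries were below the vehicle median, and the difference of -0.55 ± 0.16 (adjusted p = 0.0149) was the most negative of the 58 in that comparison, with a value of -0.48 once the trend was removed (adjusted p = 0.0193). Its difference under ARN-509 was -0.16 ± 0.15 (adjusted p = 0.434).

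ARID4B had 44.9, 57.1 and 79.6 CPM with enzalutamide and 66.7, 89.2 and 106 CPM with ARN-509, against 41.1, 68.4 and 109 CPM with vehicle. Of 13 enzalutamide libraries 9 lay below the lowest ARN-509 library, and the difference between the drugs was -0.48 ± 0.11 (adjusted p = 0.00395, and -0.25 with adjusted p = 0.0218 once the trend was removed). ARID4A differed by -0.45 ± 0.12 between the drugs (adjusted p = 0.0077) and rose by 0.31 ± 0.12 under ARN-509 (adjusted p = 0.0388), and neither passed with the trend removed (adjusted p = 0.126 and 0.146). In 14 of the 43 fits that left out 1 library the rise of ARID4A under ARN-509 did not pass. ARID3A, ARID3B and ARID5A passed in none.

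The demethylases split into amine oxidases and JmjC enzymes, which depend on 2-oxoglutarate and iron. KDM1A (LSD1), an amine oxidase that acts on mono- and dimethylated lysine, had 184, 206 and 230.2 CPM with enzalutamide and 179.5, 203 and 228 CPM with ARN-509, against 154, 229 and 304 CPM with vehicle. All 15 ARN-509 libraries were below the vehicle median, inside the wide range of that arm. It fell by 0.17 ± 0.06 under ARN-509 (adjusted p = 0.0182) and differed by -0.13 ± 0.06 under enzalutamide (adjusted p = 0.151). With the trend removed the calls changed places, at -0.11 under ARN-509 (adjusted p = 0.108) and -0.16 under enzalutamide (adjusted p = 0.0391), and the difference between the drugs was 0.04 ± 0.06 with a 95% interval from -0.08 to 0.16.

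KDM4B, an androgen receptor cofactor that demethylates histone H3 lysine 9, had 82.8, 101 and 136 CPM with enzalutamide and 76.4, 93.7 and 127 CPM with ARN-509, against 96.3, 115 and 190.4 CPM with vehicle. Below the lowest vehicle library lay 8 of 15 ARN-509 and 6 of 13 enzalutamide libraries. It fell by 0.30 ± 0.08 under ARN-509 (adjusted p = 0.00675) and differed by -0.25 ± 0.09 under enzalutamide (adjusted p = 0.0554), and with the trend removed the values were -0.25 and -0.27 (adjusted p = 0.00572 and 0.00638). KDM4A and KDM4C, which have similar substrates, passed in no comparison, and the 95% interval of KDM4C ran from -0.16 to 0.16 for enzalutamide minus vehicle.

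KDM4D stood near the limit of detection, at 2.03, 2.80 and 4.19 CPM with enzalutamide and 1.75, 2.71 and 3.50 CPM with ARN-509, against 1.44, 2.22 and 3.47 CPM with vehicle. Of 13 enzalutamide libraries 12 were above the vehicle median. It rose by 0.38 ± 0.12 under enzalutamide (adjusted p = 0.0359) and differed by 0.24 ± 0.12 under ARN-509 (adjusted p = 0.129). The call was lost in 7 of the 43 fits that left out 1 library and in 4 other settings (adjusted p = 0.0574 to 0.254). KDM4D has close genomic copies, and how the deposited counts treat reads shared by them is not given in the sources used here.

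KDM5B, a demethylase of histone H3 lysine 4 known to be abundant in prostate cancer, had 129, 154 and 191 CPM with enzalutamide and 138, 188 and 213 CPM with ARN-509, against 126, 155 and 174 CPM with vehicle. The ARN-509 arm was the high one, with 10 of 15 libraries above the highest vehicle library. It rose by 0.26 ± 0.06 under ARN-509 (adjusted p = 0.00135) and differed by 0.02 ± 0.06 under enzalutamide, and between the drugs by -0.24 ± 0.06 (adjusted p = 0.00688). With the trend removed these values were 0.11 (adjusted p = 0.0638), 0.09 and -0.02 (adjusted p = 0.829). Reads from its antisense row KDM5B-AS1, which passed in no comparison, cannot be told from those of KDM5B where they overlap, because the kit does not mark strand.

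KDM5A was lower with enzalutamide than with ARN-509 at a log2 difference of -0.44 ± 0.13 (adjusted p = 0.0141, and -0.18 with adjusted p = 0.107 once the trend was removed). KDM5C passed in no comparison, although with the trend removed it was lower under ARN-509 than with vehicle (-0.14, adjusted p = 0.0296), and its Y-linked homolog KDM5D did not pass either. KDM6A (UTX), which removes methyl groups from histone H3 lysine 27, had 29.5, 43.6 and 53.8 CPM with enzalutamide and 42.4, 54.9 and 76.8 CPM with ARN-509, against 32.2, 52.6 and 67.5 CPM with vehicle. All 13 enzalutamide libraries were below the ARN-509 median, and the difference between the drugs was -0.38 ± 0.10 (adjusted p = 0.00635, and -0.22 with adjusted p = 0.0380 once the trend was removed). KDM3A, an androgen receptor cofactor induced by hypoxia, ranged from 71.6 to 210.2 CPM with enzalutamide and from 93.6 to 239 CPM with ARN-509, against 90.8 to 283 CPM with vehicle, and passed in no comparison (-0.17 ± 0.15 and 0.13 ± 0.15 against vehicle). KDM1B, KDM2A, KDM2B, KDM3B and KDM6B passed in none.

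The machinery outside these symbols was read from 6 lists, each counted beside the share of all tested genes. Of 13 other BAF and PBAF subunits tested, 2 rose and 2 fell under ARN-509, near the 30.1% of all tested genes called, and with the trend removed 2 were higher. SS18 rose by 0.20 ± 0.05 (adjusted p = 0.000847) and BCL11A by 0.47 ± 0.12 (adjusted p = 0.00323), with trend-removed values of 0.14 and 0.41 that both passed. Between enzalutamide and ARN-509 3 of the 13 were higher and 4 lower, beside 11.1% and 14.3% of all tested genes. With the trend removed 0 of the 13 passed, beside 5.42% of all genes so tested. PBRM1, the PBAF subunit with a row of bromodomains, differed by -0.38 ± 0.09 between enzalutamide and ARN-509 (adjusted p = 0.00583, and -0.13 with adjusted p = 0.0893 once the trend was removed). Of 11 NuRD partners 5 fell under ARN-509, with a list median of -0.14, beside 16.3% of all tested genes lower. Among them MTA2 had a difference of -0.29 ± 0.06, HDAC1 of -0.22 ± 0.05 and MBD2 of -0.21 ± 0.06, with trend-removed values of -0.18, -0.17 and -0.28 that all passed. With the trend removed 6 of the 11 were lower, beside 14.9% of all genes so tested. Between the drugs 1 of the 11 was higher with enzalutamide, and 2 with the trend removed, beside 11.1% and 2.59% of all genes.

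Of 25 other bromodomain proteins 6 fell under enzalutamide, with a list median of -0.20, beside 5.89% of all tested genes lower. Under ARN-509 3 rose and 2 fell, beside 13.9% of all tested genes higher and 16.3% lower. Between the drugs 1 of the 25 was higher with enzalutamide and 9 were lower, beside 11.1% and 14.3% of all tested genes. With the trend removed 6 were lower between the drugs, beside 2.82% of all genes so tested. BAZ1A, the accessory subunit of SMARCA5 in the ACF complex, fell under enzalutamide (-0.48 ± 0.10, adjusted p = 0.00116) and differed by -0.12 ± 0.10 under ARN-509, and with the trend removed it was lower in both (-0.41 and -0.25). PHIP, a relative of BRWD1 and BRWD3, was lower with enzalutamide than with ARN-509 at a log2 difference of -0.66 ± 0.13 (adjusted p = 0.00316, and -0.29 with adjusted p = 0.00997 once the trend was removed), and TRIM33 at -0.56 ± 0.11 (-0.26 with adjusted p = 0.00927). Of 14 other SNF2 ATPases 2 fell under enzalutamide, and 2 rose and 2 fell under ARN-509, beside 10.6% and 30.1% of all tested genes called in either direction. Between the drugs 5 of the 14 were lower with enzalutamide, and 2 with the trend removed, beside 14.3% and 2.82% of all genes. HELLS, which supports DNA methylation, fell under enzalutamide (-0.47 ± 0.10) and under ARN-509 (-0.33 ± 0.10), with trend-removed values of -0.42 and -0.51 that both passed. BTAF1 rose under ARN-509 by 0.60 ± 0.13 (0.47 with the trend removed, which passed), and ATRX was lower with enzalutamide than with ARN-509 at a log2 difference of -0.66 ± 0.16 (-0.28 with adjusted p = 0.0201 once the trend was removed).

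Of 16 tested JmjC proteins without a KDM symbol 1 rose and 1 fell under enzalutamide, and 4 rose and 2 fell under ARN-509, beside 10.6% and 30.1% of all tested genes. Between the drugs 2 of the 16 were higher with enzalutamide and 3 lower, beside 11.1% and 14.3% of all tested genes. With the trend removed 1 was lower between the drugs, beside 2.82% of all genes so tested. MINA rose under enzalutamide by 0.27 ± 0.06 and under ARN-509 by 0.39 ± 0.06 (adjusted p = 0.00322 and 6.69e-06), with 0.31 and 0.27 once the trend was removed. JHDM1D, the older symbol of KDM7A, was lower with enzalutamide than with ARN-509 at a log2 difference of -0.61 ± 0.11 (adjusted p = 0.00316, and -0.28 with adjusted p = 0.0127). TYW5 rose under ARN-509 by 0.17 ± 0.06 (adjusted p = 0.0273), which turned to -0.01 with the trend removed. Of 28 tested histone methyltransferases 0 rose and 2 fell under enzalutamide, beside 4.69% of all tested genes higher and 5.89% lower. Under ARN-509 3 rose and 4 fell, beside 13.9% of all tested genes higher and 16.3% lower. With the trend removed 2 of 26 were called under enzalutamide and 9 under ARN-509, beside 14.7% and 27.2% of all genes so tested. Between the drugs 8 of the 28 were lower with enzalutamide, and 3 of 26 with the trend removed, beside 14.3% and 2.82% of all genes. SETD8, which methylates histone H4 lysine 20, fell under enzalutamide and under ARN-509, with differences of -0.26 ± 0.08 and -0.44 ± 0.07 (adjusted p = 0.0205 and 1.29e-05). Its trend-removed values of -0.28 and -0.37 both passed. SUV420H1, which adds further methyl groups to the same lysine, rose under ARN-509 by 0.25 ± 0.08 (adjusted p = 0.016, and 0.11 with adjusted p = 0.0354 once the trend was removed), and MLL was lower with enzalutamide than with ARN-509 at a log2 difference of -0.54 ± 0.14 (adjusted p = 0.00696, and -0.30 with adjusted p = 0.0106).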

How the data were processed

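Raw counts of 44 VCaP xenograft tumors were deposited by the authors as 1 table, with libraries made by the Illumina TruSeq RNA v2 kit per the labels' protocols. The submitters' processing notes name hg19 as the build, HTSeq 0.6.1, Picard 1.77, TopHat2 2.1.0 and bcl2fastq 1.8.4. Settings, annotation, strandedness and any filter against the mouse genome were not given in the sources used here, so mouse reads may stand in counts of human genes they resemble, and homologs (KDM5C and KDM5D, KDM6A and UTY), close copies of KDM4D and overlapping rows are uncertain. Columns were matched to tumors by label (0 unmatched), and no pair of libraries in an arm held the same counts.

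From the counts, genes with at least 1 CPM in at least 14 of 43 libraries were scaled by TMM and modelled with edgeR 4.0.16 under R 4.3.3 as a robust quasi-likelihood model with arm as the only term. The SE is the absolute log2 difference divided by the square root of F, intervals are 95% by the t distribution, and p-values are adjusted by Benjamini-Hochberg over all tested genes with a threshold of 0.05. They measure the spread between tumors, and precision is lowest in the shallowest library, with 3.38 M counts. CPM levels of single genes use the TMM-scaled total over tested genes. The marker sums and the filter at 1 CPM use the plain library total over all deposited genes. GC content and length are those of the longest GENCODE 29 transcript (GRCh38), found for 95.4% of tested genes, and trends were natural splines with 3 degrees of freedom per library, used as offsets.

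The sample titles number the libraries within each arm from 1, and these numbers were not used to pair libraries. The deviations from arm means of same-numbered libraries correlated above 0.1 in 3 of 13, 6 of 15 and 4 of 13 pairs for enzalutamide and vehicle, ARN-509 and vehicle, and enzalutamide and ARN-509. The most correlated library of the second arm carried the same number in 1, 3 and 0 of these pairs. Genes named are up to 8 called higher and 8 called lower per comparison by smallest p, 18 chosen for their roles and up to 3 of each other list. BRWD3, CHD2, CHD6, CHD9 and KDM5A were added after their values were seen, to complete a count, as were members named because the trend-removed fit called them or as part of a role. The genes and lists were chosen with earlier results of these data known. For 1 member the values are not reported here, although it is part of the counts and medians. Alternatives included DESeq2 1.42.0, limma 3.58.1 voom with quality weights, other scalings and filters, a replicate block, thinning and leaving out each library.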

Additional observations from a re-analysis of the deposited data

How the results depend on the processing

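For genes named in the text, 2034 of 2226 values under the alternatives kept their side of the threshold, 96 gained and 89 lost a call and 7 reversed, and of 6837 values with 1 library left out 6638 did so, 124 gained and 75 lost a call and 0 reversed. A reversal was counted only where either fit made a call, so changes of sign between uncalled values stand among those kept. With GC and length removed, BRWD1 in enzalutamide minus vehicle went from -0.05 to 0.12 in this way. SMARCA5 in ARN-509 minus vehicle likewise went from 0.08 to -0.13. SMARCA5 reversed in ARN-509 minus vehicle under the replicate block with GC and length removed (-0.12), and between the drugs there (0.047) and without the block (0.041). TYW5 did so in ARN-509 minus vehicle (-0.0082 with the block, -0.011 without) and between the drugs (0.035 and 0.034). The cause was not tested.

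With GC and length removed the members called were 4 higher and 10 lower for enzalutamide minus vehicle, 5 higher and 7 lower for ARN-509 minus vehicle, and 0 higher (3 at an unadjusted p under 0.05) and 4 lower between the drugs. Of all genes so tested 840 were higher and 1121 lower, 1650 and 1985, and 346 and 377 in the same order. The GC trend alone left 7 lower for enzalutamide and 0 higher between the drugs (3 at an unadjusted p under 0.05). Of all genes so tested 972 were lower and 568 higher in these comparisons. The replicate block, whose numbers are not known to pair libraries, gave 2 higher and 4 lower for enzalutamide, 9 and 7 for ARN-509, and 1 and 18 between the drugs, and with the trend removed 3 and 9, 8 and 9, and 1 and 5. Of all tested genes the block gave 574 higher and 652 lower, 1978 and 2167, and 1399 and 1827. With the trend removed these were 792 and 982, 1752 and 1944, and 346 and 416. Members lower under enzalutamide came to 10 with voom and 7 with DESeq2, and those higher to 1 with all 44 libraries, with only the 2 arms compared and after thinning. Of all tested genes 1289 were lower with voom and 894 with DESeq2, against 824 in the main fit. Those higher came to 595, 511 and 469 in the 3 last settings, against 656. Between the drugs 2 members were higher with filterByExpr, with 2 arms, with voom and with DESeq2. Of all tested genes 1647, 2262, 2681 and 1798 were higher in these settings, against 1551 in the main fit.

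Leaving out each library, members higher and lower ran from 1 to 3 and from 2 to 8 under enzalutamide (8 without vehicle 12), from 6 to 13 and from 6 to 7 under ARN-509 (13 without vehicle 10), and from 1 to 2 and from 15 to 20 between the drugs. All tested genes called in either direction ran from 1168 to 1831, from 3289 to 5092 and from 2623 to 4260 in the same order. Without vehicle 10, 2450 of all tested genes were higher under ARN-509, against 1940 in the main fit. Without vehicle 12, 830 were lower under enzalutamide, against 824. Scaling by library totals moved the split of all genes to 857 higher and 622 lower under enzalutamide (656 and 824 with TMM), 2733 and 1473 under ARN-509 (1940 and 2276), and 1177 and 2251 between the drugs (1551 and 2005). Voom called 2559 and 5616 genes for enzalutamide minus vehicle and between the drugs, where edgeR called 1480 and 3556. Depth limits KDM4D, BRWD1-IT2 and KDM5B-AS1 most, and small differences of genes that vary widely within an arm could not be detected.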
